A study of Homo sapiens with 45 samples.

Results

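KREMEN1 and 9 genes that carry or restrain Wnt signals (DKK1, RNF43, ZNRF3, AXIN2, NKD1, TCF7, LEF1, LGR5 and ASCL2) were followed in HCT116 cells treated with siRNA against HNRNPK. These 10 genes were taken by symbol from the 28278 gene names of the count table. KREMEN1 was selected on measured values, chosen by the fall of its counts in the knockdown libraries, so its values in that comparison are a description and carry no test. The other 9 genes were named for their role as β-catenin targets or regulators, with earlier results of these data known, so their tests are not independent of those results.

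HCT116 is a human colon cancer cell line that carries an activating CTNNB1 mutation, and HNRNPK encodes an RNA- and DNA-binding protein of the heterogeneous nuclear ribonucleoprotein family. All cells were transfected with 25 nM siRNA by RNAiMAX and collected at 72 hours. The siNTC5 group (nontargeting control, n = 4 libraries) and the siHNRNPK group (n = 4) each held 2 libraries of the TruSeq stranded mRNA kit, replicates 1 and 2, and 2 of the Stranded mRNA Ligation kit, replicates 3 and 4. The Scramble group (n = 2, nontargeting) was made with the TruSeq kit from RNA purified with RNeasy, whereas the Maxwell RSC system was used for the others. Chromatin was described by 7 domain lists from ChIP of LMNB1 (lamin B1, which lines the inner nuclear membrane), H3K9me2 and H3K9me3 (marks of heterochromatin) and H3K27me3 (the Polycomb mark), each list a single one per antibody and siRNA. All libraries came from this 1 cell line, and the labels do not say whether replicates were separate cultures, so the p-values measure the spread between these libraries, which may be technical. In bulk RNA, fewer cells that express a gene and less RNA per cell cannot be told apart.

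In canonical Wnt signalling, a Wnt ligand joins a Frizzled receptor to the co-receptor LRP5 or LRP6, the AXIN and APC destruction complex stops degrading β-catenin, and β-catenin enters the nucleus and acts with TCF and LEF proteins. Many of the genes switched on in this way encode brakes on the pathway itself, and in the intestinal crypt the same program maintains stem cells. KREMEN1 is a membrane receptor for DKK proteins and, with them, removes LRP5 and LRP6 from the cell surface.

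The 8 libraries of the knockdown comparison held 12107280 to 23633851 gene counts and the Scramble libraries 59209169 and 55007171. Levels are given as CPM, the counts of a gene divided by the TMM-scaled library total, so that they compare libraries for 1 gene and not genes with one another. HNRNPK itself was 884 ± 78.0 CPM (SD, n = 4) in siNTC5 and 199 ± 45.3 CPM (SD, n = 4) in siHNRNPK libraries, which is -2.17 on the log2 scale (SE 0.06, adjusted p = 7.29e-15 by edgeR's quasi-likelihood test), lower in all 4 of 4 knockdown libraries. An exact two-sided permutation test of its CPM returned p = 0.0286, the lowest value attainable with 4 libraries a side. The labelled colon epithelial identity was checked on 8 markers, whose summed level was 2700 to 3110 CPM in siNTC5 and 4400 to 5440 CPM in siHNRNPK libraries. Of these, EPCAM, CDH1, KRT8 and KRT18 rose and KRT19 fell, each at an adjusted p under 0.05 by edgeR, where 71.5% of all genes tested passed. CDX2 was 12.1 and 12.0 CPM in the control and knockdown means, and VIL1 and CDX1 were near 0 and not tested. Most of the summed level came from KRT8, KRT18 and KRT19, at 1159, 651 and 806 CPM in the siNTC5 mean. The 8 markers of leukocytes, endothelium and fibroblasts summed to 61.7 to 97.3 CPM and 98.7 to 148 CPM. COL1A1 rose, and VWF was 0.626 and 1.73 CPM in the control and knockdown means. The control level of VWF lay near the filter on low counts, so it could enter the tests through the knockdown libraries, and its values are a description. CD68 was 21.3 and 23.3 CPM in the control and knockdown means (adjusted p = 0.164 by edgeR), CD3E was 0 in all libraries, and PTPRC and DCN were at or near 0. The part of these shifts in the values of the Wnt genes was not tested.

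KREMEN1 transcripts were reduced to 14.2% of the control mean. The gene lies at chr22:29073035-29168333 (GRCh38.p14, protein coding), and the overlapping C22orf31 had 0 counts over the siNTC5 and 3 over the siHNRNPK libraries. Its level was 65.9, 64.4, 75.5 and 81.4 CPM in siNTC5 libraries 1 to 4 and 11.4, 9.58, 10.1 and 9.72 CPM in siHNRNPK libraries 1 to 4. All 4 knockdown libraries lay far below all 4 controls and within a narrow band, whereas the controls of the Ligation kit stood above those of the TruSeq kit. The means were 71.8 ± 8.09 and 10.2 ± 0.830 CPM (SD, n = 4 each). The knockdown level was thus 6.96-fold lower, or -2.80 on the log2 scale (SE 0.08). Within the kits the log2 fold change was -2.62 (SE 0.11) for TruSeq and -2.99 (SE 0.10) for Ligation. Of 13933 genes tested, 26 had a log2 fold change at or below that of KREMEN1, itself included.

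**Figure D1:**
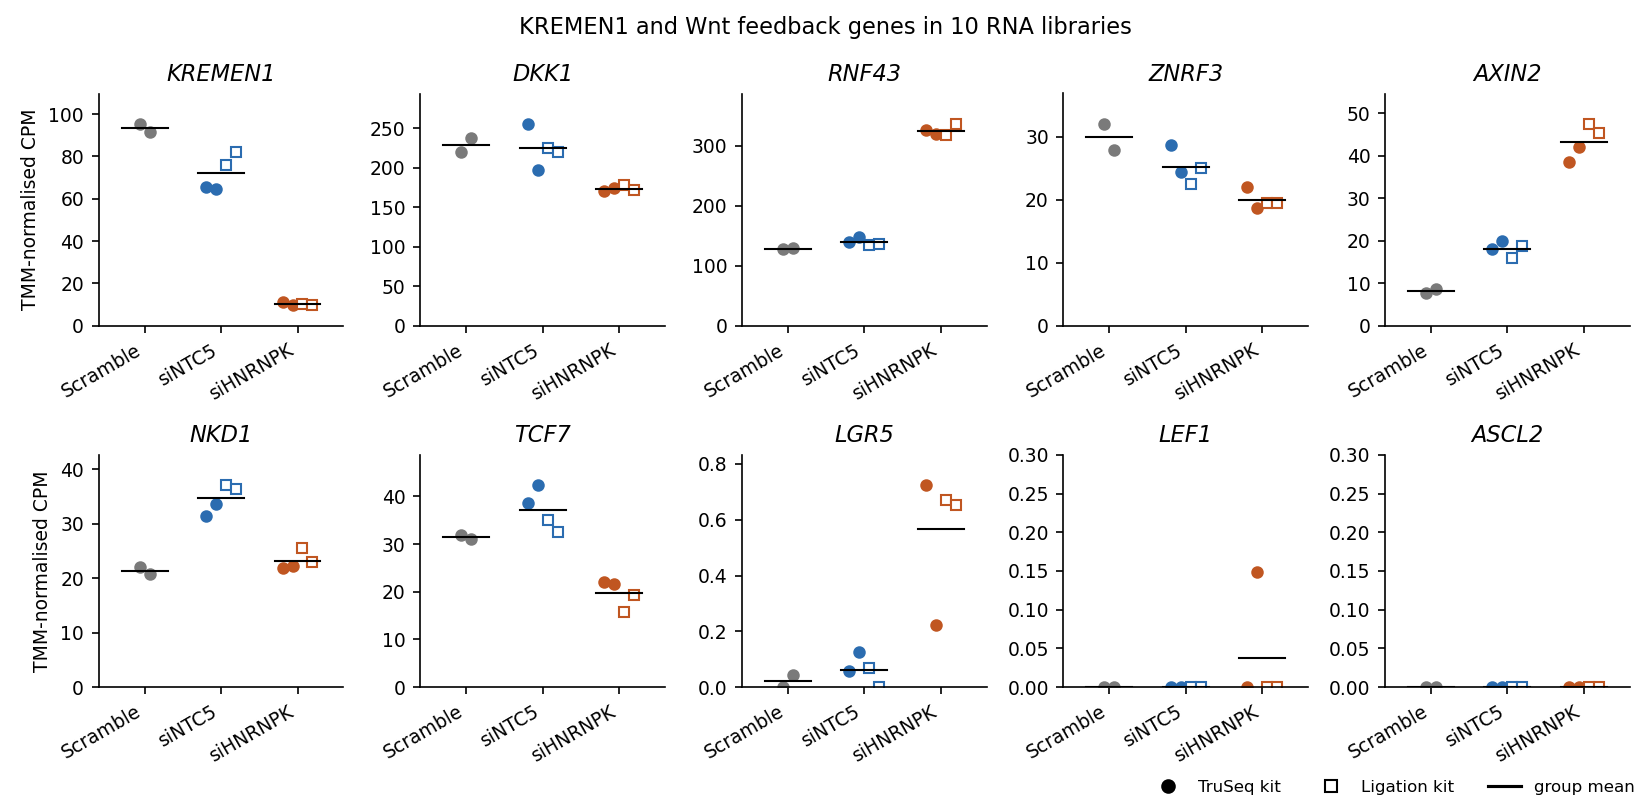
Level of each of the 10 genes in every RNA library, in TMM-normalised CPM (vertical axis, from 0, scaled for each gene), by siRNA group. Points are libraries (filled circles, TruSeq kit; open squares, Ligation kit) and lines are group means; KREMEN1 sits at 9.58 to 11.4 CPM in the knockdown against 64.4 to 81.4 CPM in siNTC5, and ASCL2 is at 0 throughout.

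Among the genes with the pattern closest to KREMEN1 over the 10 RNA libraries were ZBED6, CAPN2, XPC and TTC7B. Pearson's r with KREMEN1 on log2 CPM was 0.9992 for ZBED6, 0.9983 for CAPN2 and XPC, and 0.998 for TTC7B. The log2 fold changes of these genes in the knockdown were -2.65 for ZBED6, -2.12 for CAPN2, -1.92 for XPC and -1.26 for TTC7B. The 10 points share 3 groups, and 1721 of 14641 genes had an r above 0.9, so the likeness mainly ranks how cleanly a gene separates those groups. It is a description without a test. The paralog KREMEN2, named after its values were seen, was 10.6 ± 2.65 CPM in siNTC5 and 5.81 ± 2.32 CPM in siHNRNPK libraries (SD, n = 4 each; log2 fold change -0.90, SE 0.12, adjusted p = 2.64e-06 by edgeR).

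DKK1 (chr10:52314281-52317657), the secreted antagonist that binds LRP5 and LRP6 and is a ligand of KREMEN1, fell modestly. Across siNTC5 libraries 1 to 4 it was 257, 198, 224 and 219 CPM, and across siHNRNPK libraries 1 to 4 it was 171, 174, 179 and 173 CPM. The groups did not overlap, with the controls spread widely and the knockdown libraries close together. Its means of 224 ± 24.4 and 174 ± 3.11 CPM (SD, n = 4 each) differed by -0.36 on the log2 scale (SE 0.06, adjusted p = 2.86e-05 by edgeR). This was the first of 6 tested genes among the 9 besides KREMEN1, all 6 of which passed at an adjusted p under 0.05, in a comparison where 71.5% of all 13933 genes tested passed.

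RNF43 (chr17:58352500-58417534) and ZNRF3 are related transmembrane ubiquitin ligases that remove Frizzled receptors from the cell surface, and they moved in opposite directions. RNF43 was 141, 148, 134 and 135 CPM in siNTC5 libraries 1 to 4 and 328, 319.7, 319.7 and 339 CPM in siHNRNPK libraries 1 to 4. Every knockdown library was well above every control, with little spread on either side. Its mean rose from 139 ± 6.22 to 327 ± 9.25 CPM (SD, n = 4 each; log2 fold change 1.23, SE 0.04, adjusted p = 4.43e-14 by edgeR). ZNRF3 was 28.8, 24.4, 22.5 and 24.8 CPM in siNTC5 libraries 1 to 4 and 22.1, 18.7, 19.6 and 19.7 CPM in siHNRNPK libraries 1 to 4. The ZNRF3 groups were only just apart, since the highest knockdown library lay immediately below the lowest control. Its mean fell from 25.1 ± 2.67 to 20.0 ± 1.48 CPM (SD, n = 4 each; log2 fold change -0.32, SE 0.09, adjusted p = 0.00228 by edgeR). RNF43 overlaps TSPOAP1-AS1, a gene with 72 counts over the siNTC5 and 203 over the siHNRNPK libraries against 10391 and 17183 for RNF43. The kits keep strand, but the strand setting of the counting is not given in the sources used here, so reads of overlapping genes may have been assigned to either.

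AXIN2 (chr17:65528563-65561648), the scaffold of the destruction complex that is itself induced by β-catenin, more than doubled. Its level was 18, 19.9, 15.8 and 18.6 CPM in siNTC5 libraries 1 to 4 and 38.5, 42.0, 47.7 and 45.6 CPM in siHNRNPK libraries 1 to 4. The 4 knockdown libraries were all far above the controls, and the Ligation libraries were the highest of them. The means were 18.1 ± 1.72 and 43.4 ± 4.06 CPM (SD, n = 4 each; log2 fold change 1.25, SE 0.09, adjusted p = 2.57e-10 by edgeR). NKD1, which binds Dishevelled and dampens the signal, went the other way. Its level was 31.6, 33.7, 36.9 and 36.2 CPM in siNTC5 libraries 1 to 4 and 21.9, 22.2, 25.7 and 23.1 CPM in siHNRNPK libraries 1 to 4, and the groups were clearly apart. The NKD1 mean fell from 34.6 ± 2.44 to 23.2 ± 1.74 CPM (SD, n = 4 each; log2 fold change -0.58, SE 0.07, adjusted p = 5.29e-07 by edgeR). CTNNB1, which encodes β-catenin, rose from 503 ± 31 to 631 ± 37.2 CPM (SD, n = 4 each; log2 fold change 0.33, SE 0.04, adjusted p = 2.25e-07 by edgeR).

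Of the DNA-binding partners of β-catenin, TCF7 (chr5:134108218-134148210) fell and LEF1 was almost silent. TCF7 was 38.8, 42.3, 34.8 and 32.3 CPM in siNTC5 libraries 1 to 4 and 22.1, 21.6, 15.8 and 19.4 CPM in siHNRNPK libraries 1 to 4. In both groups the TruSeq libraries were the higher ones, and no knockdown library reached a control. TCF7 was the 1 gene of the 6 tested besides KREMEN1 whose level differed between the kits (-0.29 on the log2 scale for Ligation against TruSeq, adjusted p = 0.0075 by edgeR), as 28.5% of all genes did. The TCF7 mean went from 37.1 ± 4.43 to 19.7 ± 2.86 CPM (SD, n = 4 each; log2 fold change -0.91, SE 0.08, adjusted p = 4.69e-09 by edgeR). Its overlapping neighbour VDAC1 was 466 ± 19.0 and 444 ± 12.6 CPM (SD, n = 4 each; log2 fold change -0.07, adjusted p = 0.128 by edgeR). LEF1 had 0 counts in 7 of the 8 libraries and 2 counts (0.149 CPM) in siHNRNPK library 2. With a floor of 3 counts, equal to 0.127 to 0.248 CPM in these libraries, no LEF1 fold change can be given. TCF7L2, a TCF factor of the intestinal epithelium, is named after its values were seen and was 289 ± 22.6 and 277 ± 11.5 CPM (SD, n = 4 each; log2 fold change -0.06, SE 0.05, adjusted p = 0.332 by edgeR). For TCF7L2 the log2 fold change was 0.09 in the TruSeq libraries alone and -0.21 in the Ligation libraries alone, where it passed (adjusted p = 0.000341 by edgeR).

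RefSeq promoter sequences (GRCh38.p14) were at hand for 4 of the 10 genes, and 1 start of each is shown so that the letters recognised by TCF and LEF proteins can be read beside the expression values. Each line is the 250 bases before an annotated start, 5′ to 3′ on the strand of the gene. Capitals mark the motif CTTTGAA, the motif CTTTGAT, the motif CTTTGTA or the motif CTTTGTT on either strand, where AACAAAG is CTTTGTT read on the other strand, and overlapping matches were allowed. The DKK1 window is chr10:52314031-52314280 (plus strand), the TCF7 window chr5:134123368-134123617 (plus strand, the downstream of 2 starts), the RNF43 window chr17:58417535-58417784 (minus strand, the upstream of 2 starts) and the LEF1 window chr4:108166302-108166551 (minus strand). Both TCF7 windows and the LEF1 window belong to internal starts. They lie inside the gene body, past its 5′ end (TCF7 chr5:134108218-134148210, LEF1 chr4:108047548-108168932). Of the 2 TCF7 windows, the one with a match is shown.
DKK1: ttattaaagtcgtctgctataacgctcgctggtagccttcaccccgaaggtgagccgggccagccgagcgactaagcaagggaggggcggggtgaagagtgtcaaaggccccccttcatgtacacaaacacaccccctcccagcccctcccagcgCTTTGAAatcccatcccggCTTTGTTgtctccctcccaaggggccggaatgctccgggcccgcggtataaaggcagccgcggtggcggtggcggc
TCF7: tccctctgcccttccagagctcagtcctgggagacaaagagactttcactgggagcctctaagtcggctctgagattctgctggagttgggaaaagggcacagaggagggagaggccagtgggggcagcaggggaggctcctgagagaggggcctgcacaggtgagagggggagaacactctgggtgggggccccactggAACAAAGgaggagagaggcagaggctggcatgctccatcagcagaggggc
RNF43: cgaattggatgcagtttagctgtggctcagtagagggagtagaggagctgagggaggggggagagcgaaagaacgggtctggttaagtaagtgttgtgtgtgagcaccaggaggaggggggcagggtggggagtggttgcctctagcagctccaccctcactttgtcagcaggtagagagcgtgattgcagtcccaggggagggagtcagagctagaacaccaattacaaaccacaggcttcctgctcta
LEF1: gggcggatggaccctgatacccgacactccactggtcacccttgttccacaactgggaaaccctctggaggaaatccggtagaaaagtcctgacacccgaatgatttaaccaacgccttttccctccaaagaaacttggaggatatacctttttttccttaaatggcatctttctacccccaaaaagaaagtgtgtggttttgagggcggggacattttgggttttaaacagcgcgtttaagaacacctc
DKK1 held 2 matches, CTTTGAA beginning 95 and CTTTGTT beginning 76 bases before the start. The TCF7 window held 1, beginning 50 bases before the start, and the window of the other TCF7 start held 0. Neither RNF43 window held a match, and the LEF1 window held 0. Of 35116 RefSeq promoters of the same length, 12.0% held at least 1 match and 1.21% at least 2. A match is a string of letters and not a measured binding site.

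LGR5 (chr12:71439129-71586310), the R-spondin receptor that marks intestinal stem cells, was barely detected. Its counts were 1, 3, 1 and 0 in siNTC5 libraries 1 to 4 and 11, 3, 8 and 8 in siHNRNPK libraries 1 to 4, or 0.059, 0.125, 0.067 and 0 CPM against 0.725, 0.223, 0.674 and 0.659 CPM. All knockdown libraries were above all controls on the CPM scale, and siHNRNPK library 2 was the lowest of its group. Corrected for library size, the summed counts of 5 and 30 gave a ratio of 8.22 (95% exact interval 3.16 to 27.1, counting error only). An exact two-sided permutation test of LGR5 CPM gave p = 0.0286, the smallest possible here. Any gene whose groups of 4 do not overlap reaches that value, and 56.5% of all tested genes were separated in this way. The test was run for HNRNPK and LGR5 alone. LGR5 did not pass the filter on low counts and so was not among the genes tested. Fitted without that filter, LGR5 came to 2.91 on the log2 scale (SE 0.77, adjusted p = 4e-04 by edgeR), in a fit where 50.4% of 21564 genes passed. ASCL2, a transcription factor of the same stem cells, had 0 counts in all 10 RNA libraries, which allows up to 0.248 CPM in the shallowest of them.

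The 6 tested genes besides KREMEN1 thus split into 2 that rose, AXIN2 and RNF43, and 4 that fell, DKK1, ZNRF3, NKD1 and TCF7, with a median log2 fold change of -0.34 against -0.004 over all genes tested. Their groups of 4 did not overlap in CPM, and 56.5% of all tested genes were separated in the same way. AXIN2 and RNF43 also changed by a log2 fold change of at least 1, as 15.8% of all tested genes did. The TruSeq libraries alone gave log2 fold changes of 1.09 for AXIN2, 1.17 for RNF43, -0.39 for DKK1, -0.37 for ZNRF3, -0.56 for NKD1 and -0.88 for TCF7. The Ligation libraries alone gave 1.42, 1.28, -0.34, -0.28, -0.59 and -0.93 for the same genes in that order. All 6 passed within each kit, where 57.8% (TruSeq) and 68.1% (Ligation) of genes passed. For none of the 6 did the kit by treatment term pass, and it passed for 0.129% of all genes (18 of 13933, with 1639 at an unadjusted p under 0.05). The term was 0.36 for AXIN2 (SE 0.15, adjusted p = 0.351 by edgeR, unadjusted p = 0.0256).

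**Figure D2:**
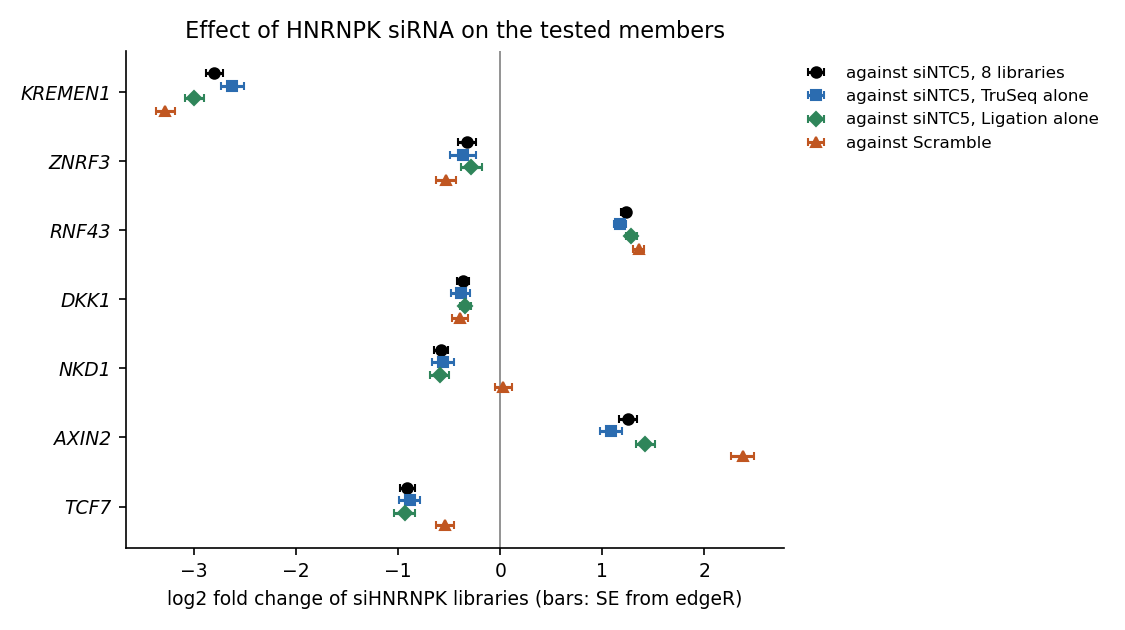
Log2 fold change of siHNRNPK libraries for the 7 tested genes (horizontal axis), against siNTC5 in all 8 libraries, in each kit alone, and against Scramble. Bars are standard errors derived from the F statistic of edgeR's test. RNF43 gives values close to one another in all 4 comparisons (1.17 to 1.36), whereas AXIN2 goes from 1.09 to 2.37 and NKD1 sits at 0.03 against Scramble.

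The 2 Scramble libraries show how these genes vary between nontargeting controls. The Scramble siRNA label, the RNA purification and the count table changed together and cannot be told apart. AXIN2 was 7.65 and 8.71 CPM in Scramble against 15.9 to 19.9 CPM in siNTC5 libraries on the scale of the 10-library fit, a log2 fold change of Scramble against siNTC5 of -1.13 (SE 0.12, adjusted p = 8.09e-08 by edgeR). NKD1 was 22 and 20.8 CPM in Scramble against 31.5 to 37.1 CPM in siNTC5 (log2 fold change -0.62, SE 0.08, adjusted p = 2.16e-06 by edgeR). Both genes were thus low in Scramble without overlap with siNTC5. TCF7 was also lower, at 31.9 and 31 CPM against 32.5 to 42.4 CPM (log2 fold change -0.38, SE 0.09, adjusted p = 0.000673 by edgeR), though it did not pass without the kit term (adjusted p = 0.129). RNF43 was 129 and 129 CPM against 135 to 148 CPM (log2 fold change -0.14, SE 0.05, adjusted p = 0.0299 by edgeR). The RNF43 call was lost in 4 of 12 alternatives, with an adjusted p of 0.0879 without the kit term and 0.113 to 0.133 without siNTC5 library 2 or without either Scramble library.

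Counting these, 4 of the 7 genes tested besides KREMEN1 passed between the controls, all lower in Scramble, where 69.3% of 14642 genes passed. The 7 include LGR5, which was not tested in the knockdown comparison and entered this fit only through the knockdown libraries. LGR5 held at most 3 counts in any control library, too few for a call between the controls (adjusted p = 0.314 by edgeR). Without LGR5, the 4 stand among the 6 genes tested in both comparisons. ZNRF3 was 32.1 and 27.9 CPM in Scramble against 22.6 to 28.7 CPM (log2 fold change 0.20, SE 0.10, adjusted p = 0.0805 by edgeR), and it passed without siNTC5 library 1 (adjusted p = 0.0197) or Scramble library 2 (0.0304). DKK1 was 219.5 and 238 CPM against 198 to 256 CPM (log2 fold change 0.03, SE 0.08, adjusted p = 0.778 by edgeR), and without siNTC5 library 1 its adjusted p was 0.0386. The LGR5 counts were 0 and 2, and those of LEF1 and ASCL2 were 0. KREMEN1 was 95.4 and 91.5 CPM in Scramble against 64.4 to 82.0 CPM in siNTC5, a log2 difference of 0.47 (SE 0.08), given without a test because the siNTC5 libraries served to choose the gene.

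Against Scramble in place of siNTC5, with the same knockdown libraries, the log2 fold change was -3.28 for KREMEN1, 2.37 for AXIN2, 1.36 for RNF43, -0.40 for DKK1, -0.53 for ZNRF3 and -0.54 for TCF7. For NKD1 it was 0.03 (SE 0.08), so that its fall was seen against siNTC5 and not against Scramble. The direction of the other 6 was the same against either control. Those values are given as a description, in a comparison where 81.2% of all genes passed. HNRNPK was 815 and 851 CPM in the Scramble libraries, and its log2 fold change against them was -1.91.

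The wider pathway was read from 6 lists holding 119 genes besides KREMEN1, of which 82 were tested and 59 passed. That is 72.0% of the tested list genes, close to the 71.5% of all genes. The 59 include the 6 tested genes described above. They also include LGR6 and TRABD2B, which passed the filter on low counts only through the knockdown libraries. Some genes stand in more than 1 list and are counted once in these totals. Of the 59, 22 rose and 37 fell, and the median log2 fold change was -0.22. The median size of the change without regard to direction was 0.44 in the lists and 0.41 over all genes.

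Among ligands and their secretion machinery, 2 of 11 tested genes rose and 6 fell (median log2 fold change -0.36). WNT9A, a Wnt ligand, fell from 9.14 ± 1.07 to 2.54 ± 0.421 CPM (SD, n = 4 each; log2 fold change -1.86, SE 0.15, adjusted p = 3.84e-09 by edgeR). Against Scramble the WNT9A log2 fold change was 0.104 (SE 0.205), so its fall was seen against siNTC5 and not against Scramble. WNT3A, a canonical ligand, fell from 3.60 ± 0.727 to 1.17 ± 0.439 CPM (SD, n = 4 each; log2 fold change -1.63, SE 0.22, adjusted p = 2.9e-06 by edgeR). Among receptors and agonists, 1 of 15 tested genes rose and 10 fell (median -0.29). FZD4, a Frizzled receptor, went from 17.4 ± 2.37 to 4.94 ± 0.748 CPM (SD, n = 4 each; log2 fold change -1.78, SE 0.13, adjusted p = 4.66e-10 by edgeR). The 1 counted as higher was LGR6, an R-spondin receptor related to LGR5, at 0.146 ± 0.114 CPM in siNTC5 and 1.14 ± 0.335 CPM in siHNRNPK libraries (SD, n = 4 each). LGR6 passed the filter on low counts only through the knockdown libraries, so it had to differ, and its values are a description.

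Secreted and membrane inhibitors, the class of KREMEN1, passed in 8 of 8 tested cases besides KREMEN1, where 71.5% of all genes passed. Of the 8, 4 were higher and 4 lower (median 0.22), and DKK1, RNF43 and ZNRF3, described above, are among them. The 4 counted as higher include TRABD2B, a membrane protease that cleaves Wnt ligands, at 0.224 ± 0.190 and 0.971 ± 0.192 CPM (SD, n = 4 each). TRABD2B too passed the filter only through the knockdown libraries and is given as a description; its log2 fold change was 1.21 in the TruSeq libraries alone, where it did not pass (adjusted p = 0.0562 by edgeR), and 3.92 in the Ligation libraries alone. FRZB, a secreted Frizzled-related protein that binds Wnt ligands, rose from 3.1 ± 0.778 to 6.54 ± 2.06 CPM (SD, n = 4 each; log2 fold change 1.08, SE 0.17, adjusted p = 1.07e-05 by edgeR). Of 19 tested genes of Dishevelled, the destruction complex and β-catenin turnover, 7 rose and 5 fell (median 0.03), and AXIN2 had the largest change.

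Of 13 tested nuclear factors, 3 rose and 5 fell (median -0.11). TLE5, a short member of the Groucho co-repressor family, fell from 201 ± 14.6 to 73.0 ± 2.86 CPM (SD, n = 4 each; log2 fold change -1.46, SE 0.05, adjusted p = 4.71e-14 by edgeR). CTNNBIP1, which blocks the binding of β-catenin to TCF proteins, fell from 20.0 ± 1.11 to 9.26 ± 2.06 CPM (SD, n = 4 each; log2 fold change -1.10, SE 0.12, adjusted p = 1.87e-07 by edgeR). Of 23 tested intestinal target genes, 7 rose and 12 fell (median -0.32). EPHB2, an Ephrin receptor of the crypt base, fell from 41.6 ± 4.12 to 17.3 ± 1.73 CPM (SD, n = 4 each; log2 fold change -1.25, SE 0.08, adjusted p = 1.99e-10 by edgeR). CCND1, which encodes cyclin D1 and is named after its values were seen, went from 619 ± 20.7 to 369.9 ± 12.7 CPM (SD, n = 4 each; log2 fold change -0.74, SE 0.04, adjusted p = 1.73e-11 by edgeR).

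**Figure D3:**
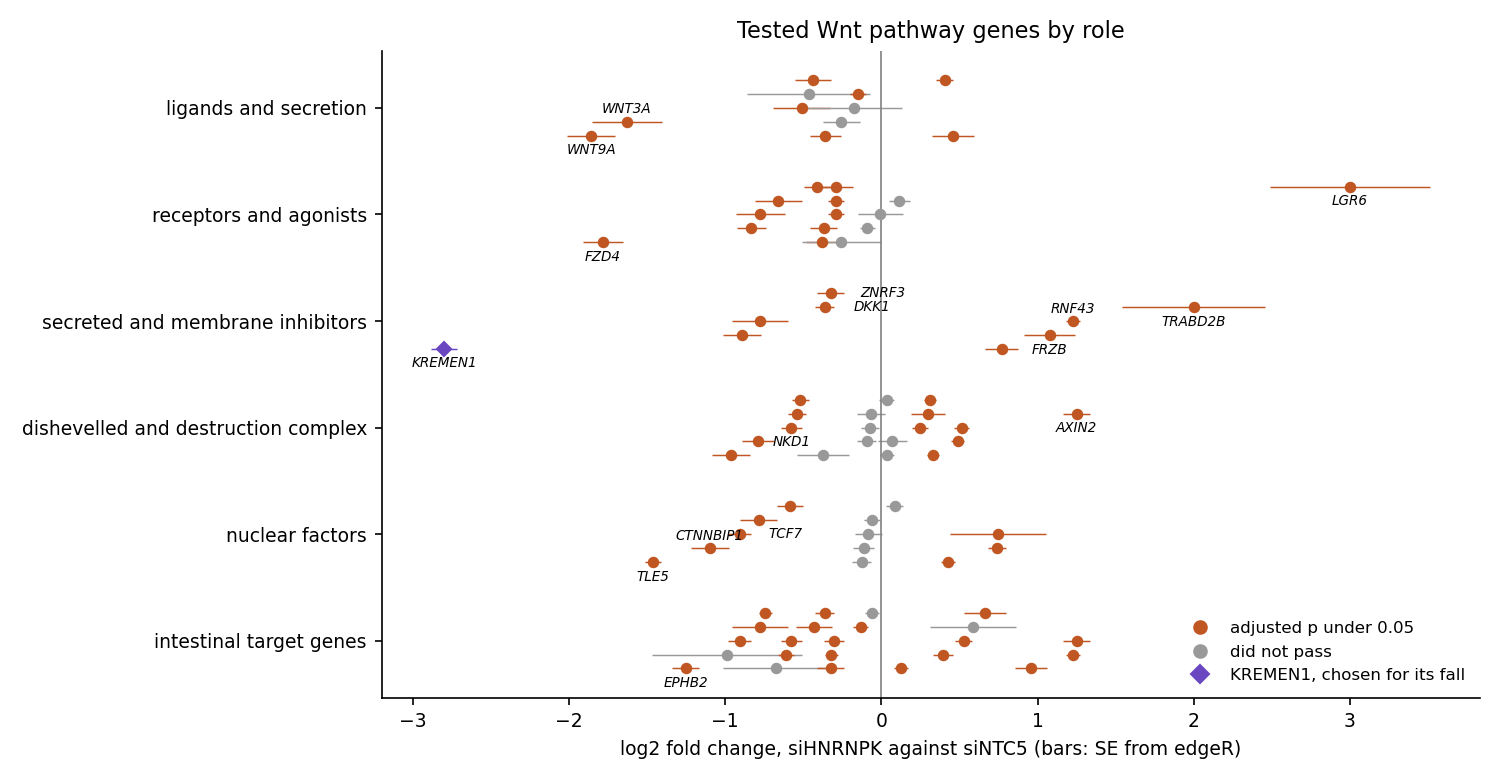
Log2 fold change of siHNRNPK against siNTC5 libraries (horizontal axis) for the tested genes of the 6 pathway lists, 1 list per band. Bars are SE derived from the F statistic of edgeR's test. Orange passed at an adjusted p under 0.05 by edgeR, grey did not, and the violet diamond is KREMEN1, which was chosen for its fall. Genes that rose and fell stand side by side in every band, and the inhibitors hold KREMEN1 at -2.80 and RNF43 at 1.23; LGR6 and TRABD2B passed the filter on low counts only through the knockdown libraries.

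KREMEN1 and ZNRF3 are neighbours on chromosome 22, where ZNRF3 (chr22:28883572-29057488) ends 15.5 kb before KREMEN1 begins. Genes within 250 kb of the pair were examined in a window chosen after the values were seen. Of 12 tested genes besides KREMEN1, 5 were lower and 4 higher, with a median log2 fold change of 0.02, beside 71.5% called and a median of -0.004 over all genes tested. EMID1, which starts 37.6 kb beyond KREMEN1 and encodes an extracellular matrix protein, had means of 9.14 CPM in siNTC5 and 2.05 CPM in siHNRNPK libraries (n = 4 each; log2 fold change -2.12, SE 0.17, adjusted p = 2.06e-09 by edgeR). GAS2L1 was also lower (log2 fold change -1.45, SE 0.15, adjusted p = 5.44e-08 by edgeR), as were AP1B1 at -0.66, ZNRF3 at -0.32 and EWSR1 at -0.17. The higher ones were XBP1, a transcription factor of the unfolded protein response, at 0.50, RHBDD3 at 0.46, CHEK2 at 0.21 and SNORD125 at 1.62. SNORD125 is a small nucleolar RNA inside AP1B1, so its reads may belong to the host gene. All 5 genes called lower lay from ZNRF3 onward on the side of KREMEN1, where RHBDD3 and SNORD125 were higher. Before ZNRF3 no tested gene was called lower, and CHEK2 and XBP1 were higher. This order was not tested.

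**Figure D4:**
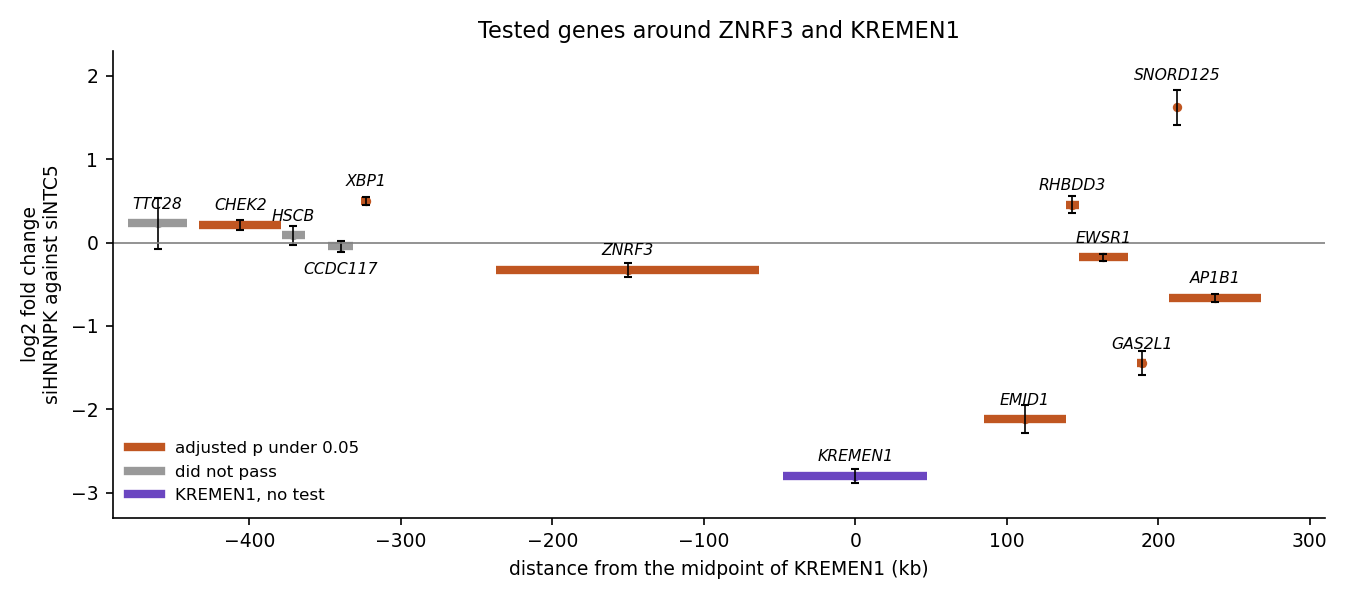
Log2 fold change of siHNRNPK against siNTC5 libraries (vertical axis) for tested genes around ZNRF3 and KREMEN1, placed by distance from the KREMEN1 midpoint in kb (horizontal axis). Bars span each gene, with TTC28 shown only in part, and whiskers are SE derived from the F statistic of edgeR's test. KREMEN1 at -2.80 and EMID1 at -2.12 lie side by side, with ZNRF3 at -0.32 on the other side.

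The domain lists ask which members lie in lamina-associated or repressive chromatin. A gene was counted as inside when at least 50% of its body was covered by domains, which are drawn in steps of 5 kb. Of the 10 genes, 2 lay inside a domain, LEF1 with 2 counts in 1 RNA library and ASCL2 with 0 in all, and none of the 7 tested genes did in any of the 7 lists. LEF1 (chr4:108047548-108168932) was 100% covered by 1 H3K27me3 domain of 555 kb in the control list and by the same interval in the knockdown list, with deposited scores of 1.58 and 1.68. The LEF1 promoter window shown above, at an internal start, lies inside it in both lists. ASCL2 (chr11:2268498-2270588) was 100% covered by an H3K27me3 domain of 830 kb in the control list (score 0.63) and of 185 kb in the knockdown list (score 0.41). ASCL2 was also 71.9% covered by an H3K9me3 domain of 65.0 kb in the knockdown list (score 0.68), while the nearest H3K9me3 domain of the control list was 329 kb away. That placement was lost when only domains of at least 100 kb were kept. Of 6588 protein-coding genes not tested in RNA, 15.1% lay inside H3K9me3 domains in the control and 20.2% in the knockdown list.

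Among the expressed genes, KREMEN1 lay 538 kb from the nearest LMNB1 domain in the control and 3847 kb from it in the knockdown list. All 10 genes were farther from an LMNB1 domain in the knockdown list. How distances changed over all genes was not computed, for LMNB1 or for the other lists. The share of protein-coding genes inside LMNB1 domains was also lower in the knockdown list, at 22.8% and 14.1% of those not tested and 2.9% and 2.6% of those tested in RNA. The distance of KREMEN1 to H3K27me3 was 448 and 443 kb, and its distance to H3K9me3 was 887 kb in the control and 503 kb in the knockdown list. NKD1 (chr16:50548396-50649249) touched an H3K27me3 domain, with 6.5% of its body covered in the control and 1.6% in the knockdown list. AXIN2 was 213 kb from an H3K9me3 domain in the control and 43.4 kb in the knockdown list, NKD1 446 and 8.4 kb, and LGR5 914 and 14.1 kb. For TCF7 these distances were 2203.2 and 96.8 kb, and for ZNRF3 997.5 and 313.6 kb. RNF43, at 452 and 432 kb, DKK1, at 157 and 147 kb, and LEF1, at 232 and 218 kb, moved little. H3K9me3 domains held more genes in the knockdown list in general, with 2.7% of protein-coding genes tested in RNA inside them in the control and 5.5% in the knockdown list. With 1 list per antibody and siRNA there is no replicate check of any of these differences.

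For comparison, 9.5% of 12283 protein-coding genes tested in RNA and 40.2% of 6588 not tested lay inside control H3K27me3 domains. The Wnt lists gave 12.0% of 83 tested and 48.6% of 37 not tested genes, beside 0 of 7 tested and 2 of 3 not tested among the 10 genes.

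**Figure D5:**
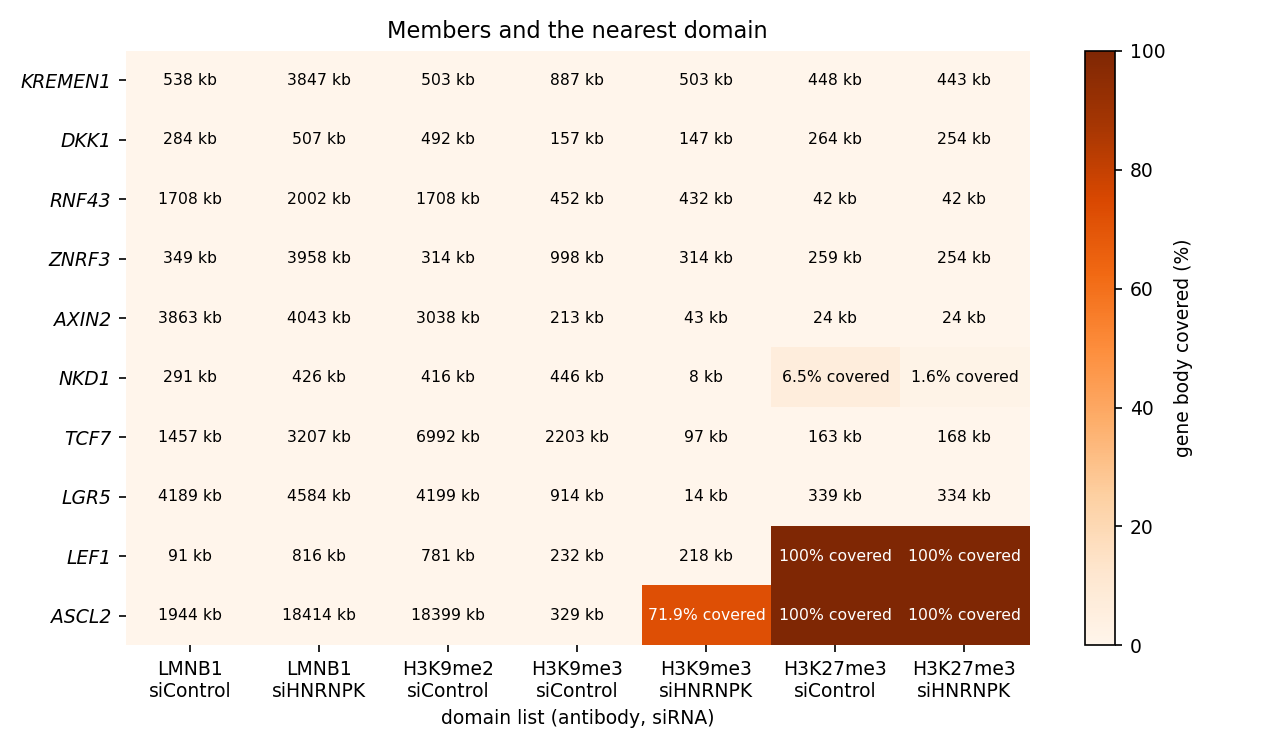
Share of each gene body covered by domains (colour, in %) for the 10 genes in the 7 domain lists, with the distance to the nearest domain in kb where nothing is covered. LEF1 and ASCL2 are fully covered by H3K27me3 under both siRNAs, ASCL2 is 71.9% covered by H3K9me3 in the knockdown list, and KREMEN1 is uncovered throughout.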

How the data were processed

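Gene counts of 10 RNA libraries were analysed as deposited by the authors, as whole-number counts per gene symbol in 1 table of 8 libraries (28278 names) and 2 Scramble tables (27135 names, 25527 shared). Per the submitters' processing notes, reads were handled with STAR 2.7.1a and featureCounts (Subread 2.0.6 for the 8 libraries) on hg38; for Scramble, hg19 and hg38 are both named, with no role, together with DESeq2. The annotation and strand setting are not given in the sources used here. The 7 domain lists deposited by the authors hold a score per domain whose unit is not stated; per the submitters' processing notes, ChIP reads were handled with fastp 0.23.2, Bowtie2 2.5.1 and deepTools 3.1.3 on hg38, and the domain caller, the input handling and the pooling of replicates are not given in the sources used here. The lists also hold another deposited value, the length of each domain.

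Libraries were grouped by the labels. Counts were filtered with filterByExpr (minimum count 10), scaled by TMM and tested in edgeR 4.0.16 (R 4.3.3) by the quasi-likelihood test with kit and treatment, p-values adjusted by Benjamini and Hochberg over 13933 genes, threshold 0.05. Scramble was compared in 1 fit of 10 libraries (14642 genes), and the kit by treatment term in its own fit. Each SE was derived from the quasi-likelihood test, as the absolute log2 fold change divided by the square root of the F statistic. DESeq2 1.42.0 served as an alternative. Gene positions and promoters came from RefSeq GRCh38.p14, with positions matched for 95.4% of names, and domain overlap was computed in Python 3.11.15. Without replicates, domain overlaps have no error.

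The 10 genes and the pathway lists were chosen with earlier results of these data known. List genes named were the up to 4 per list with the largest change among those with an adjusted p under 0.05 that changed by 1 or more on the log2 scale, along with CTNNB1, HNRNPK and the 5 genes most correlated with KREMEN1, of which 1 is not reported here. Others are marked as chosen after their values were seen. Same-numbered libraries correlated across genes after removal of group means (r = 0.1518, 0.5312, 0.4419 and 0.3624 for replicates 1 to 4), and the labels tie these numbers to the library kit; after removal of the kit means r was 0.0157 to 0.0744.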

Additional observations from a re-analysis of the deposited data

Results flagged for a closer look

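In 4 of 49 groups of 4 libraries, checked over 26 genes, 1 library stood apart from the other 3 by more of the range of the group than Dixon's critical value at 95%, and chance marks about 1 in 20 such groups. LGR5 was 0.223 CPM in siHNRNPK library 2 (3 counts), against 0.659 to 0.725 CPM in the other 3. LEF1 was 0.149 CPM in the same library (2 counts) and 0 in the other 3; both are differences of a few reads. TLE5 was 179 CPM in siNTC5 library 2, against 208 to 209.7 CPM in the other controls and 70.9 to 77.1 CPM in the knockdown. CTNNBIP1 was 21.6 CPM in siNTC5 library 4, against 19.3 to 19.5 CPM in the others.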

How the results depend on the processing

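All 6 tested genes besides KREMEN1 kept their direction and their call in 19 alternatives, which changed the scaling, test, filter, covariates or libraries. Their log2 fold changes ranged from 1.09 to 1.52 for AXIN2, 1.17 to 1.28 for RNF43, -0.43 to -0.28 for DKK1, -0.38 to -0.27 for ZNRF3, -0.62 to -0.41 for NKD1 and -0.96 to -0.80 for TCF7. The highest adjusted p was 0.0474, for NKD1 with the Scramble libraries added as controls. A minimum absolute log2 fold change of 1 left 2 of these 6 genes, 11 of the 59 list genes and 2195 of 9968 genes; the higher threshold sets these counts. The kit by treatment count went from 18 to 239 without the filter on low counts, and the count of members in knockdown H3K9me3 domains from 1 to 0 with domains of at least 100 kb; for the former the cause was not tested. Without each library in turn, 9612 to 9997 genes, 57 to 64 list genes and 6 of 6 members passed, and the HNRNPK value was -2.25 to -2.13. With a replicate block in place of kit, 9872 genes, 59 list genes and 6 members passed, and no member's call changed. Using totals without scaling factors was chosen after seeing the data. Assignment by promoter base was not run, since 4 of 10 genes had a promoter entry. Depth limits LGR5, LEF1 and ASCL2, which held at most 30 counts over a group.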

Other observations

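For 2 pathway genes the table of 8 libraries held almost no counts where the Scramble tables held many. LRP6, the co-receptor that DKK1 and KREMEN1 act on, had 1 count over the 8 libraries of the knockdown comparison but 4210 and 3568 counts in the Scramble libraries. NKD2, the paralog of NKD1, had 0 counts over the 8 libraries and 720 and 636 in the Scramble libraries. Neither LRP6 nor NKD2 was therefore tested in the knockdown comparison. TNKS (mean 7.35 CPM in siNTC5) and WNT3 (0.320 CPM) were also higher in Scramble than in siNTC5, by 4.21 and 4.22 on the log2 scale. TLE5 had no value in the fit of 10 libraries, which held only gene names shared with the Scramble libraries. Whether TLE5 was counted there under its other symbol, AES, was not checked. The cause of the differences for LRP6, NKD2, TNKS and WNT3 was not tested.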
